A study of Mus musculus with 9 samples.

Results

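FDCPmix cells depleted of Gata2 were compared with the same cells carrying an empty lentivirus, across all genes on the array. The members are the 3 arrays titled Gata2 shRNA (Gata2 knockdown, Gata2 KD) and the 3 arrays titled EV (empty vector), chosen by title alone, which make up 6 of the 9 arrays of the series. The other 3 arrays came from cells given shRNA against Pu.1 (Pu.1 KD) and serve here to estimate the spread and for a direct comparison with Gata2 KD. FDCPmix cells are an established line of undifferentiated mouse blood progenitors, kept multipotent by IL-3 and able to mature along several lineages, and a short hairpin RNA (shRNA) lowers the messenger RNA of its target. In all groups the cells were held under self-renewal conditions, transduced with virus, and sorted alive on day 5 by GFP, the reporter of the vector. From each sample, 150 ng of total RNA was labeled with Cy3 and hybridized to a single-color Agilent 4x44K mouse array. Cells of only this line were used, the EV virus encoded no hairpin, and the labels give neither the number of shRNA sequences nor whether the 3 samples of a group were separate cultures, so that p-values measure the spread between these samples, which may be technical. The paper describes the transduced samples as triplicates and speaks of a gene-specific shRNA against Gata2. Effects of that hairpin on other genes were not tested.

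GATA2 is a zinc finger transcription factor that binds GATA sequences and is needed for the maintenance of hematopoietic stem and progenitor cells. It is also active in mast cells, basophils and early megakaryocyte and erythroid cells. As FDCPmix cells became erythroid, the authors found it replaced by the related factor GATA1 at few sites, while many sites came to hold both. PU.1, the product of Spi1, is an Ets family factor that directs granulocyte, monocyte and dendritic cell development. The question put to these arrays was what happens to gene expression, and to Pu.1 in particular, when a progenitor loses Gata2.

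Levels are log2 processed intensities from which that array's 75th percentile was subtracted. They are listed for replicates 1, 2 and 3 in that order, EV first and Gata2 KD second where the groups are not named again, and a change is the Gata2 KD mean minus the EV mean on that log2 scale (n = 3 against 3). They compare arrays for a given probe and not genes with each other. Each of the 3 slides held 1 array of every group, and the slide was fitted as a block. Among the arrays, EV replicate 3 correlated least with the rest (mean Pearson correlation 0.96 across probes, against at least 0.971 for any other) and its dimmest measurable probes lay higher, at -5.06 against -6.44 to -5.90 on the other arrays compared here. For this reason a gene is called stable below when its call (adjusted p under 0.05 over all tested probes) was kept with each of the 9 arrays left out in turn and also with no slide block. The rule does not cover a limma fit of only the 2 groups compared. That fit called 756 probes, against 2924 with all 9 arrays, and many stable calls were lost. Among these were the calls of Dusp4 (adjusted p 0.0673), Msmo1 (0.0633), Ciita (0.0994), Cdkn1c (0.0653) and Dnmt3l (0.065).

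The targeted gene was examined first. Gata2 read 4.48, 5.01 and 4.84 in EV and 3.56, 2.91 and 2.96 in Gata2 KD. Every Gata2 KD array was below every EV array, and the residual message was lowest in replicates 2 and 3 of the knockdown. The change was -1.63 with an SE of 0.13 (adjusted p 0.00103), a 3.1-fold fall, and within slides it ranged from -1.94 to -1.44. Spi1 read -1.68, -1.89 and -2.09 in EV and -0.71, -0.41 and -0.44 in Gata2 KD, a rise of 1.37 (SE 0.12, adjusted p 0.00169) with no overlap between the groups. Both calls were stable.

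Of 15808 named genes tested, 1637 (10.4%) were called in Gata2 KD, 808 higher (5.11%) and 829 lower (5.24%). Among all 36585 probes, named or not, 2924 were called (7.99%), of which 3.85% of those tested were higher and 4.14% lower. The probe count rested on every one of the knockdown arrays and on part of the others: it was 1296, 1392 and 1774 without Gata2 KD replicates 1, 2 and 3, 1687 and 1368 without EV replicates 1 and 2, and 1832 without Pu.1 KD replicate 2, whereas it was 2949 without EV replicate 3. Of the named genes, 437 were stable and higher and 251 stable and lower. Rises were larger than falls, since 453 genes were called higher by at least 2-fold (2.87%) against 234 lower (1.48%), and the counts at 4-fold or more were 195 and 33. Groups were without overlap for 3753 named genes (23.7%). The median change over all named genes was -0.11, between -0.114 and -0.023 for all probes under the scalings tried, so small changes are to be read against that offset. The scatter of changes against EV intensity shows this asymmetry.

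Markers of cell types that the culture or the sort could hold moved with the knockdown. Of the mast cell and basophil markers, 1 of the 15 tested members was called higher (0 stable) and 11 lower (8 stable), and the log2 of their summed linear level was 8.68 to 8.94 over the EV arrays and 7.28 to 7.64 over the Gata2 KD arrays. Of the neutrophil markers, 13 of the 15 tested members were called higher (13 stable) and 0 lower, with summed levels of 7.89 to 8.06 and 10.1 to 10.36. Of the monocyte and macrophage markers, 11 of the 12 tested members were called higher (8 stable) and 0 lower, with summed levels of 5.13 to 5.26 and 7.69 to 8.03, and of these Mrc1 was not well above background on any EV array. Dendritic cell markers gave 4 higher (4 stable) and 0 lower of 13 tested, namely the antigen presentation genes Cd74, H2-Aa, H2-Ab1 and Ciita, with sums of 4.21 to 4.80 and 6.15 to 6.29, whereas Flt3, Zbtb46, Xcr1, Clec9a and Siglech were not called. Eosinophil markers gave 3 higher (2 stable) and 0 lower of 6 tested (sums 1.74 to 2.21 and 3.35 to 3.75), erythroid markers 0 higher and 3 lower (1 stable) of 11 tested (sums 7.74 to 8.24 and 6.93 to 7.55) and megakaryocyte markers 3 higher (3 stable) and 1 lower (0 stable) of 9 tested (sums 5.96 to 6.31 and 6.0 to 6.57). For B cells the counts were 0 higher and 1 lower (0 stable) of 7 tested, with sums of 0.87 to 1.31 and 1.01 to 1.18. No marker of T and NK cells (8 tested, sums 3.37 to 3.85 and 3.10 to 3.30), fibroblasts (6 tested, 0.45 to 1.67 and 0.81 to 1.43) or endothelium (5 tested, 1.20 to 1.54 and 1.23 to 1.64) was called by limma. At an unadjusted p under 0.05 there were 2 lower, 1 lower and 1 higher among them. For the lists with a count of 0 in a direction, limma at that unadjusted p gave 0 neutrophil, 0 monocyte and macrophage, 1 dendritic cell and 0 eosinophil markers lower and 0 erythroid and 1 B cell markers higher. The part of these cell types in the changes described below was not tested, and in bulk RNA fewer cells of a type and less RNA per cell cannot be told apart.

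All 10 stem and progenitor markers were well above background on every array of both groups. Of these, 4 of the 10 tested members were called higher (3 stable) and 3 lower (1 stable), and Flt3, Hlf and Mecom were not called. Ly6a, which encodes the stem cell antigen Sca-1, rose by 3.65 (adjusted p 9.54e-05). Procr, the endothelial protein C receptor, rose by 2.18, and Cd34 read 2.74, 3.25 and 3.15 in EV and 5.27, 5.25 and 5.07 in Gata2 KD, a rise of 2.15 (adjusted p 0.000179). The lowest Gata2 KD array was far above the highest EV array for Cd34. Slamf1 (CD150) fell by 1.20, with a further probe at -0.77 (adjusted p 0.127), and Cd48 changed by -0.76, a call lost without EV replicate 2 (adjusted p 0.0502) or Gata2 KD replicate 2 (0.0651) and with no slide block (0.064). Kit, the receptor of stem cell factor, read -0.43, -0.31 and -0.09 in EV and 0.60, 0.32 and 0.44 in Gata2 KD, and its change of 0.73 (adjusted p 0.025) was lost when any Gata2 KD array (adjusted p 0.128, 0.0665 and 0.0953 for replicates 1, 2 and 3), any Pu.1 KD array (0.0518, 0.0642 and 0.0579), or EV replicate 1 (0.0939) or 2 (0.116) was left out. The homeobox gene Meis1 changed by -1.30, a call lost in 4 of 20 alternatives, among them leaving out EV replicate 2 (adjusted p 0.0585), Gata2 KD replicate 1 (0.0573) and Gata2 KD replicate 2 (0.0589).

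To go through the rest of the transcriptome, 39 gene lists were drawn up in 5 families and each member was read from the fit over all probes. Called members made up 35% of the 280 surface receptor genes tested, 29.4% of the 374 signalling genes, 22.7% of the 185 transcription factors, 24.2% of the 400 metabolic genes and transporters, and 20.4% of the 416 genes of other cell functions, against 10.4% of all named genes. The lists were chosen with results known, so these shares do not set any list apart. Shares of the lists ranged from no called member, for the unfolded protein response and endoplasmic reticulum chaperones, to 26 higher and 9 lower of 63 for immunoglobulin-like and lectin receptors.

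**Figure D1:**
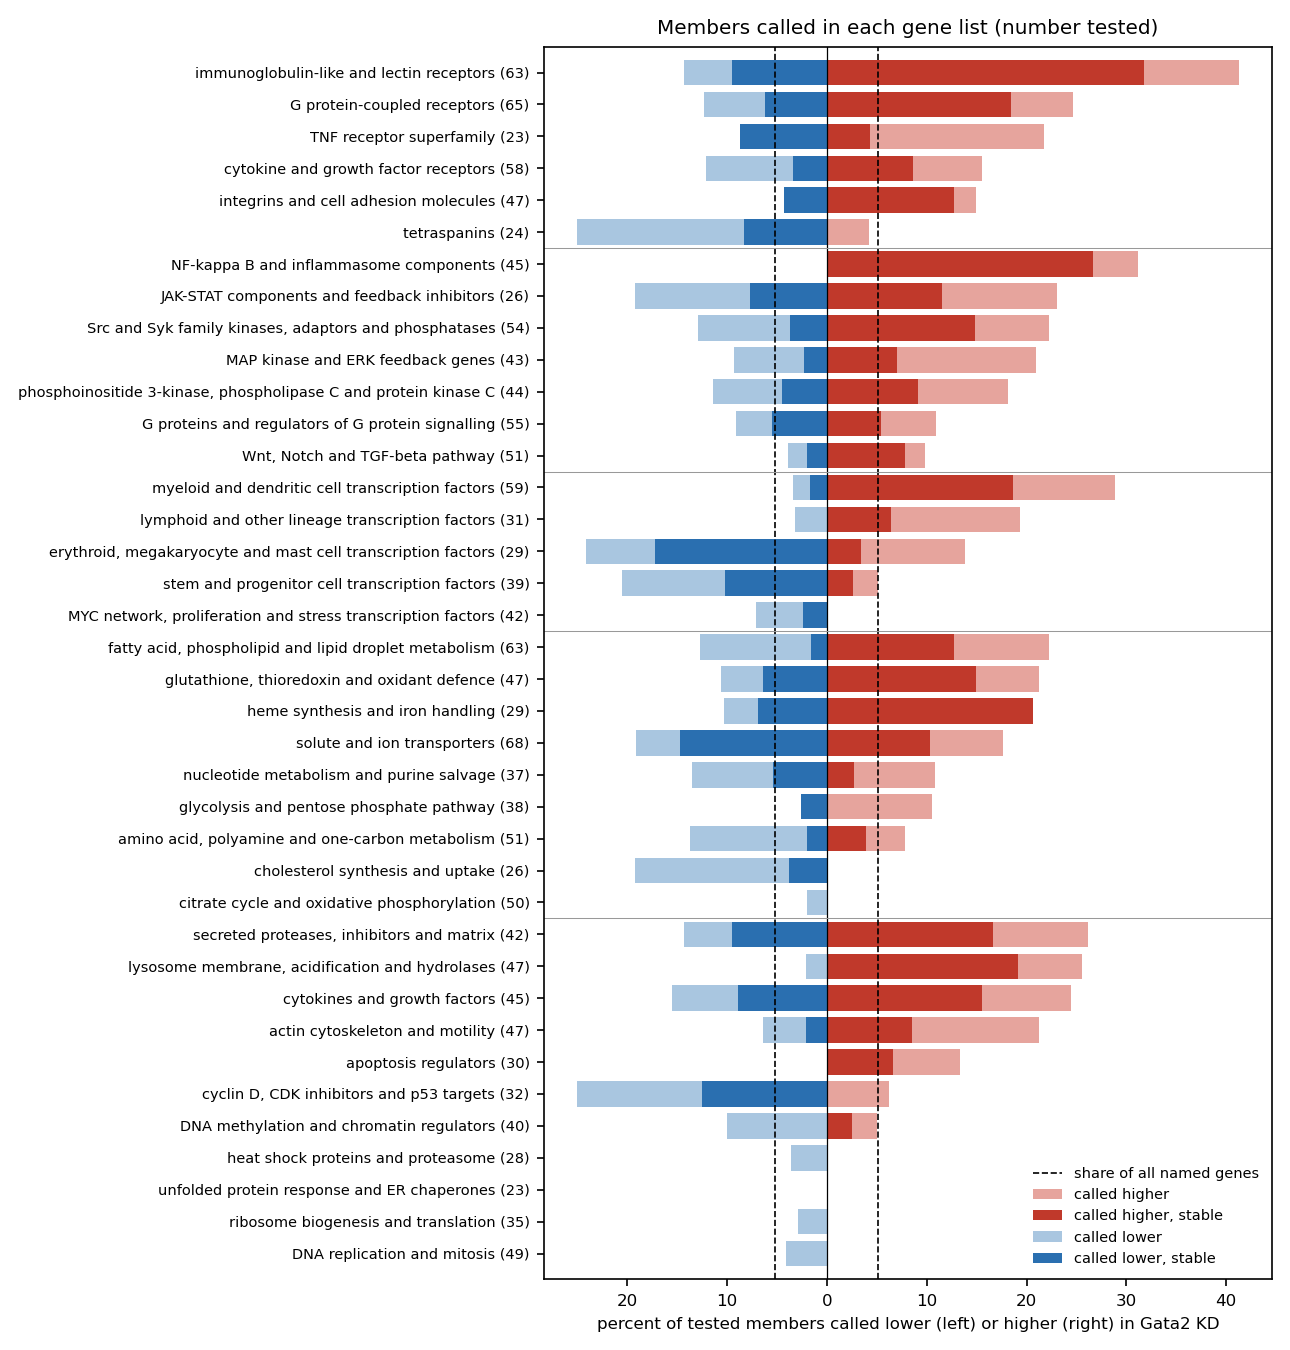
Percent of the tested members of 38 gene lists called lower (left, blue) or higher (right, red) in Gata2 KD, with the part that was stable in the darker shade and the number tested in brackets; dashed lines mark the shares of all named genes called lower (5.24%) and higher (5.11%). The bars reach farthest right for immunoglobulin-like and lectin receptors and for NF-kappa B and inflammasome components, and stay within the dashed lines on both sides for the citrate cycle, DNA replication, translation, chaperone and proteasome lists.

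Transcription factors were called in both directions. Of the stem and progenitor cell factors, 2 of the 39 tested members were called higher (1 stable) and 8 lower (4 stable), with a median change of -0.22. Gata2 itself, the target of the shRNA, is counted among the stable falls of this list. Of the erythroid, megakaryocyte and mast cell factors, 4 of the 29 tested members were called higher (1 stable) and 7 lower (5 stable) (median -0.15), and of the myeloid and dendritic cell factors, 17 of the 59 tested members were called higher (11 stable) and 2 lower (1 stable) (median 0.35). Some genes stand in more than 1 of these lists. For comparison, 0 of the 42 tested members were called higher and 3 lower (1 stable) in the list of MYC network, proliferation and stress factors, where Myc itself differed by 0.26 (adjusted p 0.341) and limma at an unadjusted p under 0.05 gave 2 higher and 8 lower.

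Among the falling factors, Klf1, the erythroid Krüppel-like factor, read -1.18, -1.15 and -0.99 in EV and -3.05, -2.87 and -2.77 in Gata2 KD (log2 change -1.79, SE 0.12, adjusted p 0.000522). Sox6, which acts in late erythroid cells, read -0.58, -0.37 and -0.28 and -1.79, -1.84 and -1.94 (log2 change -1.44, SE 0.10, adjusted p 0.000667). Further Sox6 probes differed by -1.65 (adjusted p 0.00368), -1.32 (0.0341) and -0.60 (0.108). Gfi1b, a transcriptional repressor that acts in erythroid and megakaryocyte cells, read 3.51, 3.95 and 4.20 and 2.70, 2.63 and 2.26 (log2 change -1.35, SE 0.12, adjusted p 0.00146). In none of these 3 genes did a Gata2 KD array reach the lowest EV array at the brightest probe. Zfpm1, which encodes the GATA cofactor FOG1, fell by 0.88. Stat5a, a signal transducer of IL-3 and other cytokines, fell by 1.09, and its values were tight in both groups (2.99, 3.01 and 3.25 against 2.03, 1.98 and 1.97). Mycn fell by 1.18 at its brightest probe, while a further Mycn probe differed by -0.36 (adjusted p 0.287). Gata1, the erythroid and mast cell GATA factor, read 0.90, 1.19 and 0.79 in EV and -0.26, -0.04 and -0.13 in Gata2 KD and changed by -1.1 (adjusted p 0.0141), without overlap, but the call was lost without EV replicate 1 (adjusted p 0.0661) or 2 (0.0733) and without Gata2 KD replicate 1 (0.0702) or 2 (0.0585). Tal1, a partner of GATA factors, changed by -0.66 and lost its call in 7 of 20 alternatives, among them leaving out EV replicate 2 (adjusted p 0.081) or Pu.1 KD replicate 2 (0.0518) or any of Gata2 KD replicates 1 (0.095), 2 (0.0989) and 3 (0.0604). Runx1, Myb and Fli1, also progenitor factors, differed by -0.42, -0.57 and -0.15 and were not called (adjusted p 0.0582, 0.0948 and 0.607).

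Rises among the factors were larger. Irf8, needed for monocytes and dendritic cells, read -1.89, -1.63 and -1.65 in EV and 2.70, 2.63 and 2.58 in Gata2 KD (log2 change 4.36, SE 0.09, adjusted p 4.04e-05), a 20.5-fold increase, and a further Irf8 probe rose by 2.33 (adjusted p 0.00066). Cebpd read -0.44, 0.08 and -0.07 and 3.39, 2.82 and 2.97 (log2 change 3.20, SE 0.13, adjusted p 0.000134), and its relative Cebpb rose by 1.09. Gfi1, a repressor that acts in granulocyte precursors and stem cells, read -0.71, -0.49 and -0.42 and 1.82, 1.24 and 1.42 (log2 change 2.04, SE 0.15, adjusted p 0.000694). Gfi1 and Gfi1b, close paralogs, thus changed in opposite directions, and neither overlapped between groups. Cebpa, the main granulocyte factor of the family, had a change of 0.41 (adjusted p 0.118) and was not called. Further stable rises were those of Batf3 (1.80), a dendritic cell factor, Id2 (1.74), an inhibitor of basic helix-loop-helix proteins, Bcl6 (1.67), a transcriptional repressor, and the interferon regulatory factors Irf7 (1.65) and Irf5 (1.45). Maf (4.05), Runx2 (2.98) and Tfec (2.88) rose at their brightest probe but not at every probe: a further Maf probe differed by 0.79 (adjusted p 0.244), a further Tfec probe by 0.52 (0.0935), and the other 3 Runx2 probes by 2.80 (0.006), 0.85 (0.0249) and -0.19 (0.678). In the list of lymphoid and other lineage factors, 6 of the 31 tested members were called higher (2 stable) and 1 lower (0 stable), the stable ones being Runx2 and Pou2f2 (1.16). Nr4a2, an orphan nuclear receptor, fell by 1.25.

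**Figure D2:**
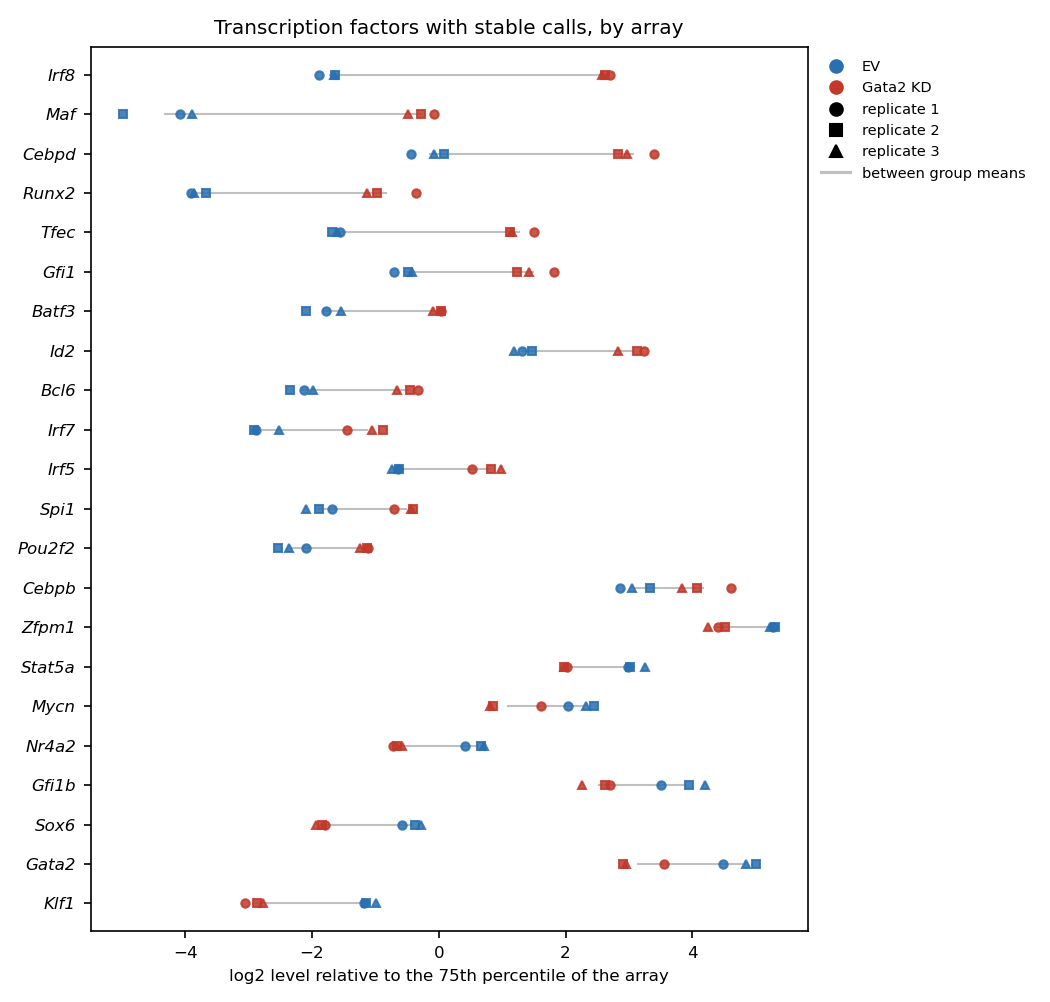
Levels (horizontal axis, log2 relative to the 75th percentile of the array) of the 22 members of the transcription factor lists with stable calls, 14 higher and 8 lower, in each EV (blue) and Gata2 KD (red) array, with the replicate by point shape and a gray line between group means. The groups do not overlap for any of the 22, but stable calls were required, which favors groups without overlap. Of all named genes, 23.7% were without overlap. The distance is largest for Irf8 (4.36) among the rises and Klf1 (-1.79) among the falls, which include Gata2, the target of the shRNA.

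Since GATA2 and PU.1 bind known letters, the 250 bases before RefSeq transcription starts (GRCm38.p6) were searched on both strands for the GATA letters (AGATAA or else AGATAG or else TGATAA or else TGATAG), for AGATAAG, which contains the first of these, and for GGAAGTG, a core of Ets sites. Of 15808 such promoters of 12641 tested genes, 21.4% held GATA letters, against 21.2% of 448 promoters of genes called higher by at least 2-fold and 26.2% of 271 promoters of genes called lower by at least 2-fold. AGATAAG was in 2.25%, 2.23% and 2.21% of these, and GGAAGTG in 9.89%, 11.8% and 3.69%. Over all 32851 promoters of the table, the shares were 26.5%, 2.74% and 8.55%. A match is a description of the letters and not a site. The promoters of 3 genes that fell, Il1rl1, Fcer1a and Cpa3, and of Irf8 and Trem2, which rose, are shown so that the letters can be seen, each 5′ to 3′ on the strand of its gene and with GATA letters of either strand in capitals.
Il1rl1, chr1:40429320-40429569, plus strand: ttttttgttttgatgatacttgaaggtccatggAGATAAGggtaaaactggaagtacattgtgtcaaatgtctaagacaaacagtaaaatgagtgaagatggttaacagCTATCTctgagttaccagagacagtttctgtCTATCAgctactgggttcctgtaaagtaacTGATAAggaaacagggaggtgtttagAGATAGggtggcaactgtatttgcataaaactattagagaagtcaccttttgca
Fcer1a, chr1:173227230-173227479, minus strand: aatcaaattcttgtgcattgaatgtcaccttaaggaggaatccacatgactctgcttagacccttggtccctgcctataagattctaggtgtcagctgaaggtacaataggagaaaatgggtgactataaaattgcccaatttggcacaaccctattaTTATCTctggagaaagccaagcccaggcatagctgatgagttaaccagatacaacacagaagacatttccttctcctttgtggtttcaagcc
Cpa3, chr3:20242182-20242431, minus strand: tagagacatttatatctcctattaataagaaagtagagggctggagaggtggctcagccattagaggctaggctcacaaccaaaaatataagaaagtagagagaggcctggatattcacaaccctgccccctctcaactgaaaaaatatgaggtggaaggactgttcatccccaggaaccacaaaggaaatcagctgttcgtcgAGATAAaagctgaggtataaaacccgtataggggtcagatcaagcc
Irf8, chr8:120736108-120736357, plus strand: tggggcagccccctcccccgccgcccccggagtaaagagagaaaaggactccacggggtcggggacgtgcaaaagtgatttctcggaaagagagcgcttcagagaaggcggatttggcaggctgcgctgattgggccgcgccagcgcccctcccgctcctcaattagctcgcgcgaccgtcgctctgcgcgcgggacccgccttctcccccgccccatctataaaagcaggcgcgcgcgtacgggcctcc
Trem2, chr17:48346151-48346400, plus strand: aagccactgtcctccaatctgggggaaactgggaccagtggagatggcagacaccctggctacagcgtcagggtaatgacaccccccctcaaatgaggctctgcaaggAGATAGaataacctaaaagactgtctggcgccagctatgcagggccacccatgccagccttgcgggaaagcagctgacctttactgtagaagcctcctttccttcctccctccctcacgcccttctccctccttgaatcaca
The stretch before this Il1rl1 start held 5 matches and that of a further Il1rl1 start 1, those of Fcer1a, Cpa3 and Trem2 held 1 each, and that of Irf8 held 0. Both starts of Gata2, which fell, had 0 matches. The 5 genes shown were chosen after their values were seen and do not stand for the called genes, whose shares are given above.

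Surface receptors were the family with the largest share of called genes. Of the cytokine and growth factor receptors, 9 of the 58 tested members were called higher (5 stable) and 7 lower (2 stable). Il1rl1, the IL-33 receptor of mast cells and basophils, read 3.79, 3.86 and 3.99 in EV and 0.83, 0.51 and 0.62 in Gata2 KD (log2 change -3.23, SE 0.13, adjusted p 0.000134). Il1r2, the decoy receptor of IL-1, read -1.93, -1.98 and -1.63 and 1.59, 1.52 and 1.15 (log2 change 3.27, SE 0.15, adjusted p 0.000167), and Il1r1, the signalling receptor, rose by 2.60. No array of either group overlapped the other for these 3 genes. Il1rap, the shared receptor chain, was not called (-0.02, adjusted p 0.948). Csf1r, the receptor of macrophage growth factor, is a monocyte marker outside this list and rose by 4.50, with the other probes at 3.26 (adjusted p 8.05e-05) and 0.51 (0.181). The other Il1rl1 probes differed by -2.80 (adjusted p 0.000133) and -1.19, which was not called (0.0693). The interferon gamma receptor genes Ifngr1 (1.1) and Ifngr2 (1.41) and the shared IL-10 receptor chain Il10rb (1.16) rose, and the TGF-beta receptor gene Tgfbr2 fell by 0.89, with a further probe at -0.26 (adjusted p 0.265).

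In the TNF receptor superfamily, 5 of the 23 tested members were called higher (1 stable) and 2 lower (2 stable). Tnfrsf1a, the main TNF receptor, read 1.20, 1.55 and 1.20 in EV and 3.95, 3.61 and 3.52 in Gata2 KD (log2 change 2.38, SE 0.11, adjusted p 0.000167). The costimulatory receptors 4-1BB, encoded by Tnfrsf9, and GITR, encoded by Tnfrsf18, went the other way. Tnfrsf9 read 0.30, 0.30 and 0.20 and -1.55, -1.80 and -1.85 (log2 change -2.0, SE 0.12, adjusted p 0.000354), and Tnfrsf18 fell by 1.56 (adjusted p 0.000838). Tnfrsf1b, also of this family, was not called at its brightest probe (0.01, adjusted p 0.956), but its further probe rose by 2.02 (0.000167).

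G protein-coupled receptors other than chemokine and formyl peptide receptors gave 16 higher (12 stable) and 8 lower (4 stable) of 65 tested. Gpr84, a receptor for medium-chain fatty acids, read -3.22, -3.30 and -1.94 in EV and 1.34, 1.36 and 1.04 in Gata2 KD (log2 change 4.07, SE 0.28, adjusted p 0.000623), and here EV replicate 3 stood above its group. Adgre4, an adhesion receptor of myeloid cells, rose by 5.16, with only 1 of 3 EV arrays well above background. Of the nucleotide receptors, P2ry6 (3.81), P2ry13 (2.61) and P2ry2 (2.20) rose, and P2ry1 (-1.25) fell. Gpr65, an acid-sensing receptor, rose by 2.09. F2r, the thrombin receptor PAR1, read 6.53, 6.62 and 6.79 and 5.54, 5.19 and 5.17 (log2 change -1.35, SE 0.17, adjusted p 0.00643). The knockdown arrays lay below the EV range. The prostaglandin E2 receptor Ptger3 (-1.16) and the Wnt receptor Fzd4 (-0.85) fell, Ptger3 with a further probe at -0.72 (adjusted p 0.0811).

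Of the integrins and adhesion molecules, 7 of the 47 tested members were called higher (6 stable) and 2 lower (2 stable). Itgb5, an integrin beta chain, read -3.65, -3.69 and -2.72 in EV and 0.50, 0.49 and 0.70 in Gata2 KD (log2 change 3.92, SE 0.24, adjusted p 0.000376). The complement receptor chain Itgam (1.57) and the mucosal homing integrin Itgb7 (1.16) rose as well. Cd44, the hyaluronan receptor, rose by 1.97 at the brightest probe, and the other Cd44 probes differed by 1.92 (adjusted p 0.000625) and 0.08 (0.791). The adhesion molecules Mcam (-1.62) and Icam4 (-1.14) fell, Mcam with a further probe at -0.53 (adjusted p 0.0907). Tetraspanins, small membrane organizers, gave 1 higher (0 stable) and 6 lower (2 stable) of 24 tested, the stable falls being those of Tspan13 (-1.58) and Cd81 (-1.09).

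Immunoglobulin-like and lectin receptors gave 26 higher (20 stable) and 9 lower (6 stable) of 63 tested, with a median change of 0.32. Trem2, a lipid-sensing receptor of macrophages, read -2.51, -3.39 and -3.22 in EV and 3.22, 3.16 and 2.82 in Gata2 KD (log2 change 6.10, SE 0.24, adjusted p 0.000121), a 68.8-fold rise. Sirpa, the inhibitory receptor for CD47, read -2.30, -2.59 and -2.31 and 2.51, 2.36 and 2.41 (log2 change 4.82, SE 0.13, adjusted p 4.04e-05), although the other Sirpa probes differed by 0.93 (adjusted p 0.0056) and 1.05 (0.162). The lectins Clec5a (4.40), Clec4a2 (3.83) and Clec4n (2.89), the receptor Trem3 (3.56), the checkpoint protein VISTA encoded by Vsir (2.35), and the Fc gamma receptors Fcgr4 (1.97), Fcgr1 (1.77), Fcgr3 (1.68) and Fcgr2b (0.86) rose. Further Fcgr2b probes differed by 0.85 (adjusted p 0.00624) and 0.81 (0.598). Fc receptors did not all move alike, because Fcer1a, the IgE receptor alpha chain, read 5.96, 6.18 and 5.94 and 2.96, 3.03 and 3.15 (log2 change -2.98, SE 0.11, adjusted p 0.000121). Cd200r3, an activating receptor of mast cells and basophils, read 1.67, 1.80 and 1.71 and -0.27, -0.36 and -0.29 (log2 change -2.03, SE 0.10, adjusted p 0.000167). Both were far outside the range of the EV arrays. Havcr2 (TIM-3, -1.51), Clec10a (-1.24) and the PD-1 ligand Pdcd1lg2 (-1.22) fell too.

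**Figure D3:**
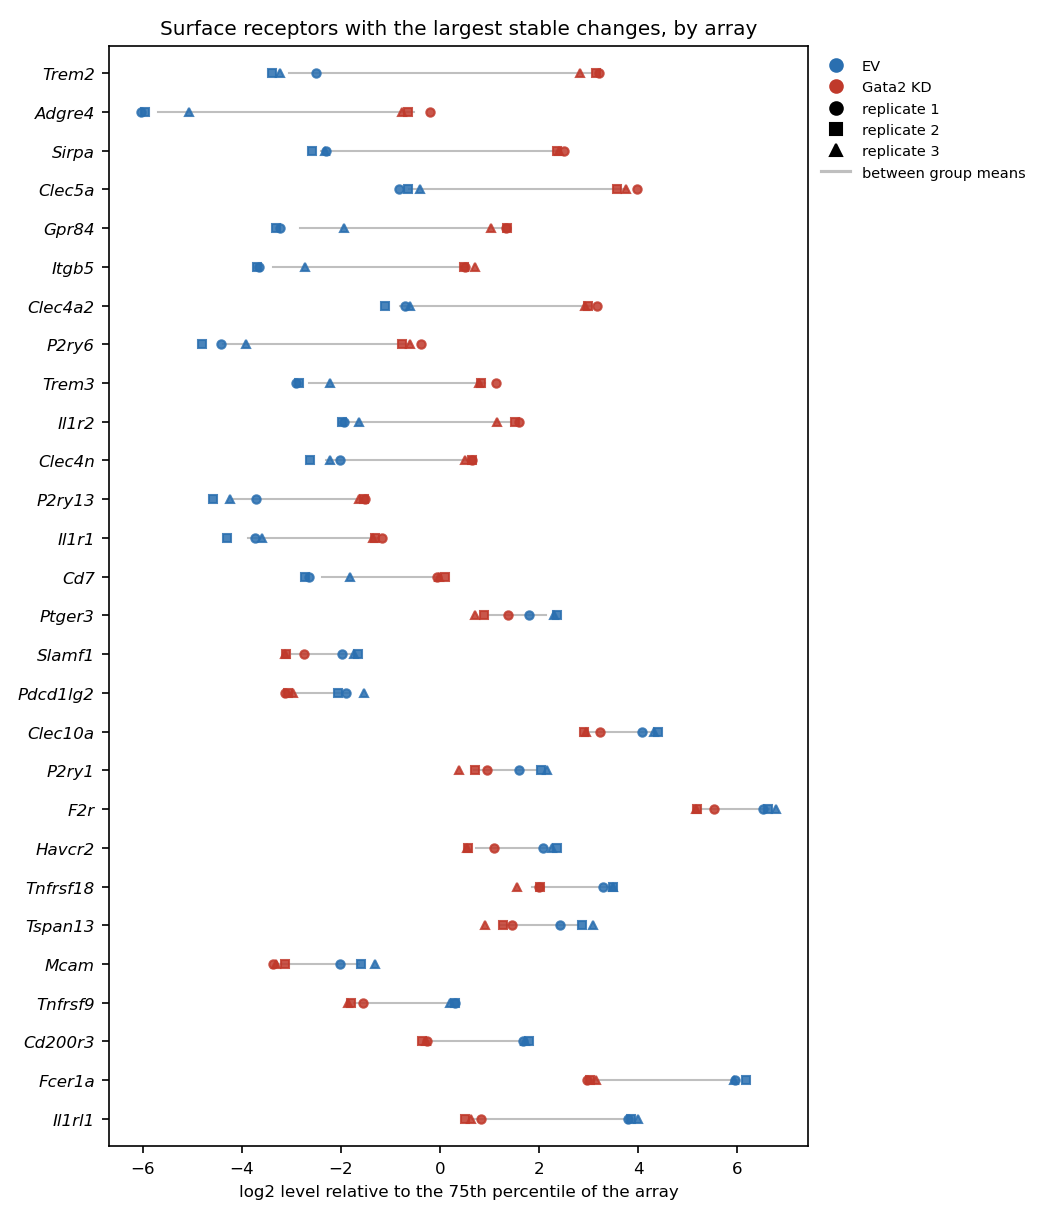
Levels (horizontal axis, log2 relative to the 75th percentile of the array) of the 14 members of the surface receptor lists with the largest stable rises and the 14 with the largest stable falls, in each EV (blue) and Gata2 KD (red) array, with the replicate by point shape and a gray line between group means. Trem2 moves farthest upward (6.10) and Il1rl1 farthest downward (-3.23).

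Signalling lists held called genes in both directions, with NF-kappa B the exception. Of the Src and Syk family kinases, adaptors and phosphatases, 12 of the 54 tested members were called higher (8 stable) and 7 lower (2 stable). Fgr, a Src family kinase of myeloid cells, read -2.99, -3.54 and -2.54 in EV and -0.61, -0.59 and -0.59 in Gata2 KD (log2 change 2.42, SE 0.19, adjusted p 0.000888), with no overlap between the groups. Lat, the adaptor used by the IgE and T cell receptors, read 2.05, 2.31 and 2.58 and 0.50, 0.33 and 0.20 (log2 change -1.97, SE 0.13, adjusted p 0.000575). Tyrobp, the adaptor DAP12 through which Trem2 signals, rose by 1.12 (adjusted p 0.00597). The adaptor Nfam1 (1.96) and the phosphatases Ptpn22 (1.1) and Ptpn6 (0.85) rose, and the inhibitory adaptor Dok2 fell by 1.34.

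Phosphoinositide 3-kinase, phospholipase C and protein kinase C genes gave 8 higher (4 stable) and 5 lower (2 stable) of 44 tested. Prkcb, a classical protein kinase C, rose by 2.60 at its brightest probe, with a further probe at 0.22 (adjusted p 0.275), and the kinase regulator Pik3r5 by 2.10, with a further probe at 0.48 (0.0417). Of the RAS exchange factors, Rasgrp4 rose (1.47) and Rasgrp1 fell (-0.94, with a further probe at -0.15, adjusted p 0.421). Inpp4b, a phosphoinositide phosphatase, fell by 1.4. MAP kinase and ERK feedback genes gave 9 higher (3 stable) and 4 lower (1 stable) of 43 tested, the stable members being Mapk13 (1.55), Mapk3 (1.03), which encodes ERK1, Mapkapk3 (1.0) and, lower, the phosphatase Dusp4 (-1.07).

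JAK-STAT components and feedback inhibitors gave 6 higher (3 stable) and 5 lower (2 stable) of 26 tested. Of the feedback inhibitors, Socs3 rose by 1.01 and Socs1 fell by 0.87, both stable. Of the G proteins and their regulators, 6 of the 55 tested members were called higher (3 stable) and 5 lower (3 stable). Of the alpha subunits of the Gq class, Gna11 and Gna15 were not called. Gnaq read -1.23, -1.1 and -1.33 in EV and 0.50, 0.14 and 0.10 in Gata2 KD (log2 change 1.47, SE 0.14, adjusted p 0.00215), and Gna14 read -1.56, -1.48 and -0.81 and -4.23, -4.05 and -3.69 (log2 change -2.70, SE 0.22, adjusted p 0.00118). No array of either group overlapped the other for Gnaq or Gna14. Rgs1, which turns off G protein signalling, fell by 1.98, Rgs14 rose by 1.41, the receptor kinase Grk5 rose by 0.92 and the beta subunit Gnb4 fell by 1.17.

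Among regulators of vesicle traffic, Rab7b, Rab27b and Rab37 had stable calls. Rab7b, a late endosomal GTPase, read -1.90, -2.0 and -1.79 in EV and 2.15, 2.14 and 1.87 in Gata2 KD (log2 change 3.95, SE 0.16, adjusted p 0.000131). No array of either group overlapped the other. Rab27b (-0.98) and Rab37 (-0.97), which act in granule secretion, fell. In the Wnt, Notch and TGF-beta list, 5 of the 51 tested members were called higher (4 stable) and 2 lower (1 stable): Tgfbi, a secreted matrix protein induced by TGF-beta, read -2.23, -2.78 and -1.99 and 2.74, 2.48 and 2.85 (log2 change 5.02, SE 0.25, adjusted p 0.000192), the activin subunit Inhba rose by 2.90, Notch1 by 1.48 and the Notch regulator Dtx4 by 1.52, and the Notch ligand Jag2 fell by 1.03. With normexp background correction Jag2 differed by -0.37 and was not called (adjusted p 0.0602).

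NF-kappa B and inflammasome components were the only signalling list with no member called lower: 14 of 45 tested members were called higher, 12 of them stable. At an unadjusted p under 0.05 limma gave 23 higher and 0 lower, and the median change was 0.29. Nlrc4, an inflammasome sensor, read -4.87, -5.18 and -4.05 in EV and -1.75, -2.08 and -2.09 in Gata2 KD (log2 change 2.72, SE 0.27, adjusted p 0.00238). The peptidoglycan sensor Nod1 (2.67), the kinase Ikbke (2.64), the pore-forming protein Gsdmd (1.87), the NF-kappa B inhibitor Nfkbia (1.80), the related Bcl3 (1.55), the subunit Relb (1.4), and the cytokines Il1b (1.58) and Il18 (0.98) rose. Casp1, the inflammasome protease, changed by 0.62, a call that was lost in 10 of 20 alternatives.

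Metabolic lists differed. Of the glycolysis and pentose phosphate genes, 4 of the 38 tested members were called higher (0 stable) and 1 lower (1 stable), the stable fall being that of the glucose transporter Slc2a3 (-1.21). Of the citrate cycle and oxidative phosphorylation genes, 0 of the 50 tested members were called higher and 1 lower (0 stable), with a median change of -0.20. Limma gave 1 higher and 19 lower of these 50 at an unadjusted p under 0.05. With normexp background correction 8 members of this list were called lower. Of the cholesterol synthesis and uptake genes, 0 of the 26 tested members were called higher and 5 lower (1 stable) (median -0.30; 13 lower and 0 higher at an unadjusted p under 0.05), and only Msmo1, a sterol oxidase, was a stable fall (-0.99).

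Fatty acid, phospholipid and lipid droplet genes gave 14 higher (8 stable) and 8 lower (1 stable) of 63 tested. Lpl, the lipoprotein lipase, read -3.79, -3.69 and -3.29 in EV and 0.20, -0.04 and -0.23 in Gata2 KD (log2 change 3.56, SE 0.16, adjusted p 0.000162). Stable rises in this list were also those of the triglyceride synthases Dgat1 (1.57) and Dgat2 (1.97), the cholesterol esterifying enzyme Soat1 (2.07) and the droplet coat protein Plin2 (1.15) and the lysosomal lipase Lipa (1.20). The glycerolipid synthesis genes Gpat3, Gpat4, Agpat2, Agpat4, Lpin1 and Lpin2 were not called, and the lipases Lipe (0.68) and Mgll (0.87) were called higher without being stable. Abcg1, which exports cholesterol, read 2.02, 2.15 and 1.87 and -0.05, -0.36 and -0.45 (log2 change -2.30, SE 0.11, adjusted p 0.000176). The desaturases Scd1 and Scd2 changed by -0.58 and -0.72, calls lost in 11 of 20 and 10 of 20 alternatives.

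Glutathione, thioredoxin and oxidant defence genes gave 10 higher (7 stable) and 5 lower (3 stable) of 47 tested. Akr1c18, an aldo-keto reductase that inactivates progesterone, had the largest fall of the named genes well above background on all 6 arrays compared. It read 0.71, 0.67 and 0.60 in EV and -3.13, -4.33 and -2.77 in Gata2 KD (log2 change -4.07, SE 0.33, adjusted p 0.0011), with replicate 2 of the knockdown lowest. Of the aldehyde dehydrogenases, Aldh2 was not called, Aldh3b1 read -0.42, -0.69 and -0.46 and 3.16, 3.08 and 3.07 (log2 change 3.62, SE 0.12, adjusted p 8.99e-05) and Aldh1a1, a retinoic acid forming enzyme and stem cell marker, fell by 1.71. Among the peroxiredoxins of this list, Prdx5 rose (1.29), Prdx4 fell (-1.46), and Prdx1, Prdx2 and Prdx6 were not called. The membrane glutathione transferases Mgst1 (2.54) and Mgst2 (2.18), the cytosolic Gstm1 (1.41) and the NADPH oxidase subunits Cyba (1.13) and Ncf4 (0.95) rose.

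Of the heme synthesis and iron genes, 6 of the 29 tested members were called higher (6 stable) and 3 lower (2 stable), so that every rise in this list was stable. Alas1, the first enzyme of heme synthesis outside the erythroid lineage, read 2.62, 2.83 and 3.22 in EV and 5.28, 5.46 and 5.33 in Gata2 KD (log2 change 2.46, SE 0.12, adjusted p 0.000167). The iron-binding proteins Lcn2 (4.29) and Ltf (3.24), the ferroxidase Cp (3.56), the iron regulator Hfe (2.0) and the iron exporter Slc40a1 (1.19) rose. Tfr2, the second transferrin receptor, fell by 1.48, and the importer Slc11a2 fell by 0.71, with a further probe at 0.11 (adjusted p 0.607). Lcn2 and Ltf are also granule proteins and stand among the neutrophil markers.

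Solute and ion transporters gave 12 higher (7 stable) and 13 lower (10 stable) of 68 tested, the family's largest number of stable falls. P2rx7, an ATP-gated channel, read 2.82, 2.98 and 2.92 in EV and 0.72, 0.47 and 0.34 in Gata2 KD (log2 change -2.40, SE 0.11, adjusted p 0.000149). Slc22a3, an organic cation transporter, read -2.38, -2.12 and -1.86 and -4.92, -6.42 and -4.81 (log2 change -3.27, SE 0.38, adjusted p 0.00443), with 2 of 3 Gata2 KD arrays well above background. The monoamine transporter Slc18a2 (-1.73), which loads histamine into granules, Slc45a3 (-2.18), the water channel Aqp1 (-1.65), the amino acid transporter Slc7a8 (-1.49) and the efflux pump Abcg2 (-1.09) fell. The proton channel Hvcn1 (2.44), the phagosomal metal transporter Slc11a1 (2.50), Slc15a3 (2.20), the betaine and GABA carrier Slc6a12 (2.60) and the amino acid transporter Slc7a7 (1.70) rose. Amino acid, polyamine and one-carbon genes gave 4 higher (2 stable) and 7 lower (1 stable) of 51 tested, among them stable rises of Ass1 (1.47), an arginine synthesis enzyme, and Gatm (1.09) and a stable fall of Hdc (-1.0), which makes histamine. Nucleotide genes gave 4 higher (1 stable) and 5 lower (2 stable) of 37 tested, with Xdh, the xanthine dehydrogenase, higher by 2.09 and Entpd3 (-1.51) and Nt5c3 (-1.28), which take phosphates off nucleotides, lower.

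**Figure D4:**
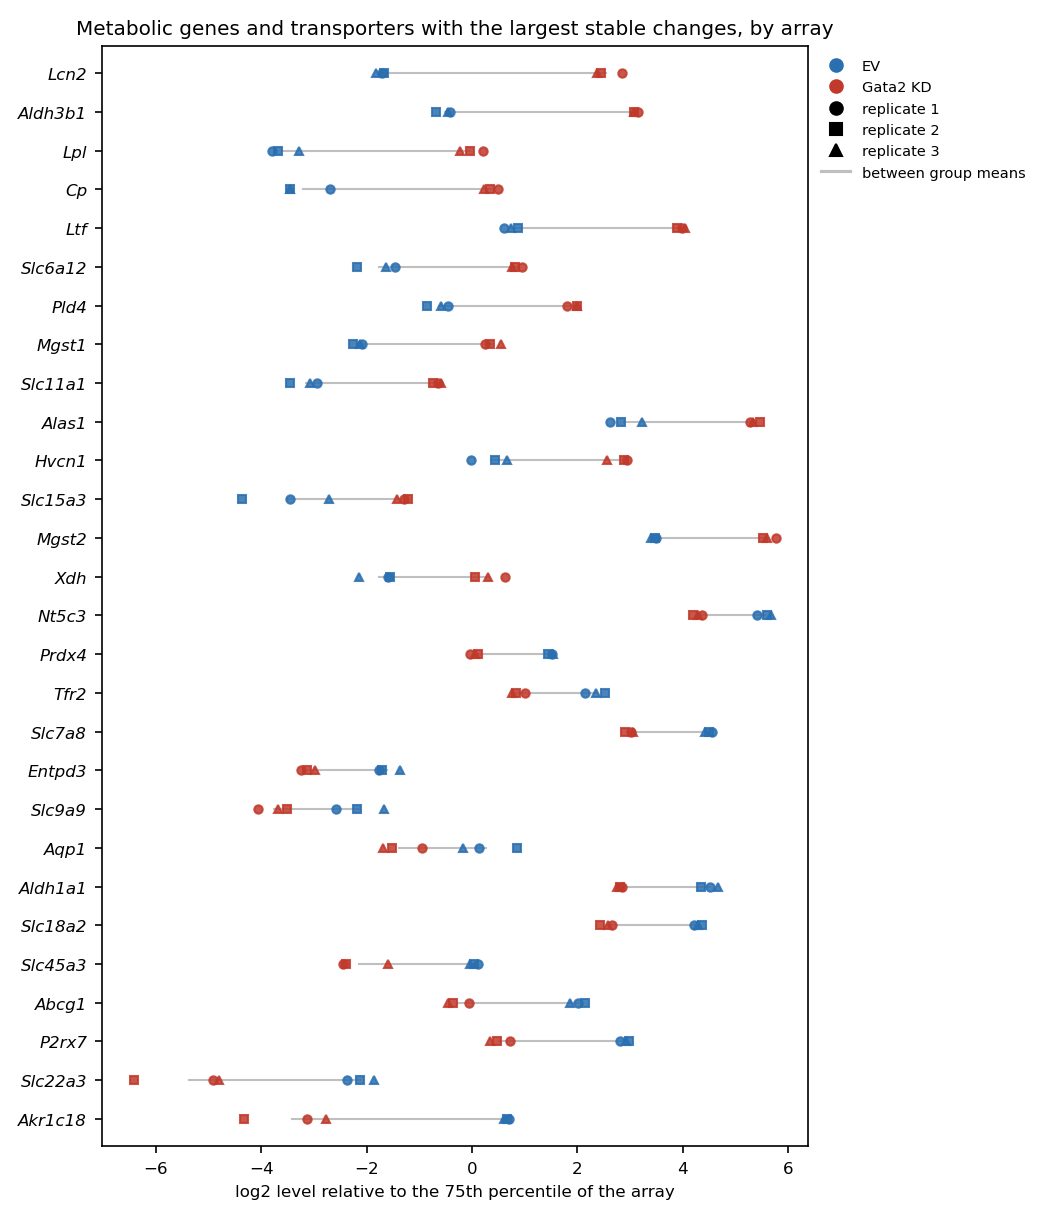
Levels (horizontal axis, log2 relative to the 75th percentile of the array) of the 14 members of the metabolic and transporter lists with the largest stable rises and the 14 with the largest stable falls, in each EV (blue) and Gata2 KD (red) array, with the replicate by point shape and a gray line between group means. Akr1c18 (-4.07) and Slc22a3 (-3.27) moved farthest down, each with replicate 2 lowest among the Gata2 KD arrays, and Lcn2 (4.29) moved farthest up.

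With the settings used here, housekeeping lists had few called members. Called members were 0 higher and 2 lower (0 stable) of 49 tested for DNA replication and mitosis, 0 higher and 1 lower (0 stable) of 35 tested for ribosome biogenesis and translation, 0 higher and 1 lower (0 stable) of 28 tested for heat shock proteins and the proteasome and 0 higher and 0 lower of 23 tested for the unfolded protein response. Limma at an unadjusted p under 0.05 gave 14, 7, 12 and 4 lower and 0, 0, 1 and 1 higher in the same order. With normexp background correction the counts called lower were 7, 6, 7 and 2 in that order. Medians of these lists were -0.21, -0.18, -0.25 and -0.18, against -0.11 for all named genes. Cyclin D, CDK inhibitor and p53 target genes gave 2 higher (0 stable) and 8 lower (4 stable) of 32 tested. Cdkn2b, the inhibitor p15, read 0.23, 0.75 and 0.70 in EV and -1.19, -1.32 and -1.43 in Gata2 KD (log2 change -1.87, SE 0.14, adjusted p 0.000724). The kinase Plk2 (-1.45), the inhibitor p57 encoded by Cdkn1c (-1.02) and Phlda3 (-0.92) fell too. Apoptosis regulators gave 4 higher (2 stable) and 0 lower of 30 tested, with 3 lower by limma at an unadjusted p under 0.05. Bcl2a1b, an antiapoptotic BCL2 relative, rose by 5.37, and it belongs to a family of near-identical paralogs whose transcripts its probe may share. Bmf, a proapoptotic BH3 protein, rose by 2.46 at its brightest probe, with the other probes at 0.20 (adjusted p 0.44) and 1.05 (0.488).

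Lysosomal genes gave 12 higher (9 stable) and 1 lower (0 stable) of 47 tested, with a median change of 0.31. Ctss, a protease of antigen presentation, read -2.66, -3.01 and -2.09 in EV and 3.67, 3.35 and 3.54 in Gata2 KD (log2 change 6.11, SE 0.24, adjusted p 0.000121), and Ctsh (4.06), Psap (2.32), Ctsz (1.70) and the sialidase Neu1 (1.05) rose. Actin and motility genes gave 10 higher (4 stable) and 3 lower (1 stable) of 47 tested, with stable rises of Myo1f (2.19), Evl (1.55), Actn1 (0.93) and Gsn (0.82) and a stable fall of Enah (-0.97). In the limma fit of only the 2 groups compared, Actn1 (adjusted p 0.0662), Gsn (0.0656) and Enah (0.0571) were not called. Chromatin regulators gave 2 higher (1 stable) and 4 lower (0 stable) of 40 tested, of which the rise of Dnmt3l (1.22), a cofactor of DNA methyltransferases, was stable.

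Secreted products changed in both directions. Of the proteases, inhibitors and matrix proteins, 11 of the 42 tested members were called higher (7 stable) and 6 lower (4 stable). Mmp8, the neutrophil collagenase, read -1.46, -1.43 and -1.41 in EV and 3.81, 3.55 and 3.39 in Gata2 KD (log2 change 5.02, SE 0.11, adjusted p 4.04e-05), and thrombospondin, encoded by Thbs1, rose by 3.06. Spink2, a protease inhibitor of progenitors, fell without overlap between the groups (log2 change -2.61, SE 0.10, adjusted p 0.00011). The matrix protein Sparc (-1.92) and the cystatin Cst7 (-1.44) fell. Of the cytokines and growth factors, 11 of the 45 tested members were called higher (7 stable) and 7 lower (4 stable). Il6 read 2.09, 2.43 and 2.43 and 0.54, 0.09 and -0.02 (log2 change -2.12, SE 0.17, adjusted p 0.000967), and Il4 (-1.55), the calcitonin gene Calca (-2.14, with a further probe at -0.76, adjusted p 0.0154) and angiopoietin 1, encoded by Angpt1 (-1.18), fell. Csf1, the macrophage growth factor, read -1.4, -1.50 and -1.35 and 0.79, 0.77 and 0.67 (log2 change 2.16, SE 0.09, adjusted p 0.000142). Il1rn, the IL-1 receptor antagonist, rose by 4.87 at its brightest probe, with a further probe at 0.94 (adjusted p 0.626), and Ltb by 1.79 and Tnf by 1.17. The ligand Il1a (-0.16, adjusted p 0.606) was not called.

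Among genes outside these 5 families that all 6 arrays compared measured well above background, Hp, which encodes haptoglobin, read 1.32, 1.32 and 0.82 in EV and 6.32, 6.20 and 6.22 in Gata2 KD (log2 change 5.09, SE 0.13, adjusted p 4.04e-05). The complement component C3 read 1.82, 1.83 and 1.99 and 6.37, 6.27 and 6.24 (log2 change 4.41, SE 0.11, adjusted p 4.04e-05), with a further probe at 1.18 (adjusted p 0.0176). Large stable rises were also those of Ifitm6 (5.15), the receptor Pilra (4.98), the ubiquitin ligase Marchf1 (4.54) and the ectoenzyme Bst1 (4.26). Ugt1a6b rose by 4.39, with a further probe at -0.15 (adjusted p 0.376). On the falling side, Cd55, which protects cells from complement, read 2.30, 2.35 and 2.36 and -0.05, -0.24 and -0.34 (log2 change -2.55, SE 0.15, adjusted p 0.000302), so that the complement component C3 and this complement inhibitor moved in opposite directions. Alox5, the first enzyme of leukotriene synthesis, read 3.88, 4.17 and 4.06 and 1.81, 1.94 and 1.76 (log2 change -2.20, SE 0.11, adjusted p 0.000192). Cpa3, a mast cell protease (-2.51) and marker of that cell type, Dmwd (-2.52), Mslnl (-2.43), Tmtc2 (-2.35), the imprinted gene Phlda2 (-2.31), Syngr1 (-2.07) and the ubiquitin ligase Rnf128 (-2.04) fell with stable calls. Pakap (-2.45) and the motor Myo6 (-2.01) fell as well, although a further Pakap probe differed by -0.33 (adjusted p 0.259) and a further Myo6 probe by -0.63 (0.102).

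Of the called genes, 6 that rose were not well above background on any EV array and 9 that fell were not on any Gata2 KD array, so for these the size of the change is only bounded. Cxcl10, an interferon-induced chemokine, was at least 32.7-fold higher in Gata2 KD (adjusted p 0.000121), Oasl2 at least 40.9-fold (0.000818), the netrin receptor Unc5b at least 11.6-fold (0.00409), and the mannose receptor Mrc1 at least 6.76-fold (0.00208). The kinase-like gene Styk1 was at least 2.73-fold lower (adjusted p 0.00339) and the chloride channel Ano1 at least 2.83-fold lower (0.0059). These 6 calls were stable. Each bound sets the mean of the brighter group against, on each array of the dimmer group, the higher of the value of the probe and the lowest signal well above background.

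Whether these changes set Gata2 KD apart from the other knockdown was tested directly, in the contrast of Gata2 KD with Pu.1 KD, where the EV arrays enter only the slide terms and the estimate of the spread. It called 2776 named genes (17.6%) and 5170 probes (14.1%). Leaving out Gata2 KD replicates 1, 2 and 3 lowered the probe count to 2800, 3028 and 3432, and leaving out Pu.1 KD replicates 1, 2 and 3 to 2823, 2516 and 3036, and it was 4288, 4139 and 7445 without EV replicates 1, 2 and 3. Il1rl1 read 3.91, 4.13 and 4.23 in Pu.1 KD, above every Gata2 KD array by a difference of -3.44 for Gata2 KD minus Pu.1 KD (adjusted p 4.28e-05). Differences in the same sense were found for Gna14 (-2.58, adjusted p 0.000791), Abcg1 (-2.28, 9.13e-05), Klf1 (-2.62, 6.48e-05) and Akr1c18 (-3.89, 0.000738). Irf8 read -2.10, -2.11 and -2.23 in Pu.1 KD, a difference of 4.78 (adjusted p 9.67e-06), and Hp, C3, Trem2 and Prkcb were higher in Gata2 KD by 4.86, 4.57, 5.99 and 2.65 (adjusted p 1.61e-05, 1.2e-05, 4.44e-05 and 4.28e-05). Smaller differences were those of Id2, which read 2.32, 2.41 and 2.62 in Pu.1 KD (0.62, adjusted p 0.0387), and Rgs1, which read 2.40, 2.39 and 2.55 (-0.96, 0.027), both with Pu.1 KD arrays between the Gata2 KD and EV arrays. Kit, at 1.01, 1.26 and 1.13, was higher in Pu.1 KD than in Gata2 KD (difference -0.68, adjusted p 0.0203). Tgfbr2 did not pass the threshold between the knockdowns (0.43, adjusted p 0.0555). Such differences also include any change in Pu.1 KD itself. Against EV, limma called Pu.1 KD lower for, among others, Fcer1a (-0.70, adjusted p 0.025), Cpa3 (-0.72, 0.0276), Alox5 (-0.70, 0.0223) and Mmp8 (-1.51, 0.00345). It called Pu.1 KD higher for Calca (1.52, 0.00452) and Dmwd (0.99, 0.00686), among others. Il1rl1, Gna14, Abcg1, Akr1c18, Irf8, Hp, C3 and Trem2 were not called between Pu.1 KD and EV.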

How the data were processed

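Total RNA (150 ng) from sorted FDCPmix cells was hybridized to Agilent 4x44K mouse arrays designed on mm8. For each array the authors deposited intensity values from Agilent Feature Extraction 10.1.1.1, per the file headers. Their processed signal, used here, had its background removed and was detrended within the array, without any step across arrays. A table of log2 values was deposited too. It correlated best with the log2 median signal, its exact processing is not given in the sources used here, and it served as an alternative.

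Each processed signal was put on the log2 scale and the array's 75th percentile was taken off, leaving out control spots and outlier-flagged spots. Testing required a signal well above background on 3 or more of the 9 arrays and no group with fewer than 2 values, which held for 36585 of 41174 probes. The number of arrays limits the precision. Accessions were matched to RefSeq (GRCm38.p6), which named 23374 probes (16535 genes, 15808 tested). A gene was read from its brightest tested probe, by the mean over all 9 arrays. Promoter sequences are those of RefSeq (GRCm38.p6).

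Limma 3.58.1 in R 4.3.3 was fitted to all 9 arrays with group means and the slide as a block, two-sided. P-values were adjusted by the Benjamini-Hochberg method across all tested probes (threshold 0.05), and the procedure was tested on simulated data. The methods name LIMMA and SAM without covariates. The fit with no slide block is therefore an alternative, and SAM was not run. The other alternatives are named in the closing section. Genes were named by a rule: Gata2, Spi1, Gata1, anchor genes of each list, up to 4 called members of each list with the largest rise and up to 4 with the largest fall, the 25 largest rises and the 25 largest falls among called genes measurable on the 6 arrays compared and without overlap, and cell type markers. Further stable list members and genes with a bounded change were named after their values were seen. The comparison, its members and the lists were chosen with earlier results of these data known. A gene list and some genes are not reported here.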

Additional observations from a re-analysis of the deposited data

How the results depend on the processing

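The probe count of Gata2 KD against EV (2924, with 1409 higher and 1515 lower) moved by over 1.5 times under several settings. It was 1890 with no slide block (854 lower), 4592 with eBayes trend and robust settings (2661 lower), 4555 with the deposited log2 values (2236 higher, 2319 lower), 756 when only the 2 groups were fitted (492 higher, 264 lower) and 1166 at a change of at least 2-fold (731 higher, 435 lower). Leaving out each array in turn gave 1296 to 2949 probes, 754 to 1731 higher and 526 to 1218 lower. Gata2 KD against Pu.1 KD (5170) gave 1976 at 2-fold or more and 2516 to 7445 with an array left out. With the replicate block in place of the slide the counts were 1167 (719 higher, 448 lower) and 2350. Deviations of same-numbered EV and Gata2 KD arrays correlated at -0.43, -0.24 and 0.35. Those of EV replicates 1, 2 and 3 with the Gata2 KD array of the same slide correlated at 0.26, 0.66 and -0.04. With 3 arrays in a group, such values cannot settle whether the replicate numbers pair the samples. The causes of the moved counts were not tested, and fits with an array left out also rest on fewer arrays.

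Quantile normalization, normexp background correction, the median in place of the percentile, dim probes kept in, probes measurable on all 9 arrays only, and outlier-flagged spots kept each left these counts over all probes within 1.5 times. Counts in single lists moved more with normexp background correction, as given above for the citrate cycle and housekeeping lists. The 494 genes picked by the naming rule gave 9859 gene and setting pairs. Of these pairs, 8856 kept direction and call, 882 lost the call, 121 gained it and 0 reversed. The picked genes include the largest called changes, so these counts give no rate over all named genes. Of all 1637 named genes called, 437 were stable and higher and 251 stable and lower. Normexp background correction brought the changes of some genes closer to 0 by over 1.5 times: Adgre4 to 2.46, Bst1 2.55, Gatm 0.61, Il1r1 1.61, Il1rn 3.21, Inhba 1.69, Maf 2.45, Nlrc4 1.22, P2ry13 1.29, P2ry6 2.13, Pilra 3.20, Procr 1.17, Runx2 1.88, Slc15a3 1.32, Entpd3 -0.85, Gna14 -1.55, Jag2 -0.37, Mcam -0.91, Mslnl -1.18, Plk2 -0.64, Slamf1 -0.76 and Slc22a3 -1.13. Dim genes, and those with probes that disagree, are the least certain.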

Other observations

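Hmox1, which encodes the heme-degrading enzyme heme oxygenase 1, read 2.46, 2.69 and -0.25 in EV replicates 1, 2 and 3 and 2.89, 2.91 and 2.37 in Gata2 KD. Its change of 1.09 was not called (adjusted p 0.39), and the low value of EV replicate 3 lay below all other arrays of the series.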
